A study of Zea mays with 192 samples.

Results

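CNX (GRMZM2G022180) and crt2 (GRMZM2G358059) are the 2 maize gene models that the reference gene table names as a calnexin and a calreticulin. They were taken by their identifiers from the 41187 rows of the deposited table. They were chosen by their mean levels in the 2 pools of cells, known from earlier results of these data in which both were lower in one pool. Their levels by pool are therefore a description and carry no test.

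Calnexin and calreticulin are lectin chaperones of the endoplasmic reticulum (ER). Calnexin spans the ER membrane and calreticulin is soluble in the lumen, and both hold newly made glycoproteins by a glucose left on their N-linked glycan until the protein has folded. Both bind calcium, and calreticulin is a main calcium store of the ER. In plants as in animals, their genes belong to those that respond when unfolded protein accumulates in the ER, together with the genes of the HSP70-type chaperone BiP and of protein disulfide isomerases.

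The cells were single leaf protoplasts (cells freed of their wall) of the wild-type maize inbred B73, and CEL-seq2 counted the 3' ends of polyadenylated RNA by unique molecular identifiers (UMIs). Seedlings were raised without light for 10 to 12 days, and leaves of many seedlings were pooled for each isolation. A group of 96 protoplasts had received a pool of pre-meiotic transcription factors (TFs), here the pre-meiotic pool, and a group of 96 a pool of bHLH factors, the bHLH pool. Every cell is thus labelled as transfected, no cells labelled as untransfected were analysed here, and the labels give neither the promoter of the constructs nor the number of transfections. Each pool therefore counts as 1 replicate, and the differences between pools have no replicate check. Intervals are exact, at 95%, and hold counting error alone.

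Depth ran from 953 to 88243 UMIs per cell in the pre-meiotic pool (3029855 in all) and from 4699 to 148894 in the bHLH pool (3274116 in all). No construct UMI was seen in 11 cells of the pre-meiotic pool, of 953 to 34991 UMIs and 5 of them under 5000, and construct UMIs were seen in each of the 96 cells of the bHLH pool. Uptake in those 11 cells rests on the label. Without them the mean levels of the pre-meiotic pool were 299.6 TPM for CNX and 65.8 TPM for crt2, next to 289.6 and 68.3 TPM with them. The pools differed in complexity, with 22 and 2 cells under 2000 detected genes. No cell type known to lack CNX or crt2 was at hand to measure stray RNA. As a measure between the pools, the anther bHLH gene ms32 had a UMI in 1 cell of the pre-meiotic pool. It had one in all 96 cells of the bHLH pool, at 1581 TPM. The latter pool had received bHLH factors. The anther gene ms23 was also seen in all 96 of its cells, and ms8 and ms26 in 1 cell each. Whether the ms32 UMIs came from a construct was not tested. Among leaf markers, the mesophyll genes (3 of 5 matched) had a UMI in 74 and 71 cells, with summed levels of 0 to 1137 and 0 to 410.4 TPM per cell and means of 150.1 and 92.0 TPM. Most of that sum was ppdk1 alone (73 and 70 cells, 138 and 88.4 TPM). The vascular genes (2 of 2 matched) had one in 44 and 19 cells, with sums of 0 to 508 and 0 to 87.8 TPM and means of 32.9 and 6.69 TPM. The difference in that sum was sus1 (41 and 13 cells, 31.2 and 4.40 TPM), while sut1 was sparse in both pools (7 and 6 cells, 1.70 and 2.29 TPM). The bundle sheath genes (2 of 5) had one in 25 cells of each pool, with sums of up to 381 and 130 TPM and ssu1 at 0 in the bHLH pool. These highest sums are the level of 1 UMI in a cell of 2622 UMIs and of 2 UMIs in a cell of 15434. The epidermis genes (3 of 4) had one in 41 and 60 cells, with sums of up to 284 and 286 TPM. The part of these cell types in the results was not tested.

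CNX, the membrane-bound chaperone, was present in most cells of both pools and was lower in the bHLH pool. It had 912 UMIs in the pre-meiotic pool and 352 in the bHLH pool. TPM here stands for UMIs per 1000000 UMIs of the same cell, with no division by length. In the pre-meiotic pool the level ran from 0 over a median of 231 to a highest value of 2722 TPM, with a mean of 289.6 ± 332 TPM (SD over 96 cells). Over the bHLH cells it ran from 0 over a median of 65.3 to 512 TPM, with a mean of 107 ± 113 TPM (SD over 96 cells). The middle cells of the pools overlapped: the quartiles were 88.7 and 374 TPM in the pre-meiotic pool and 30.3 and 153 TPM in the bHLH pool. The upper ends were further apart, with 17 cells above 500 TPM in the pre-meiotic pool and 1 in the bHLH pool. By summed UMIs, CNX was 2.80-fold higher in the pre-meiotic pool (interval 2.47 to 3.18).

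The share of cells with a CNX UMI differed less than the level. It was 84 of 96 cells (87.5%, exact Clopper-Pearson interval 79.2% to 93.4%) in the pre-meiotic pool and 76 of 96 (79.2%, 69.7% to 86.8%) in the bHLH pool. After each cell had been thinned to 5000 UMIs, which left out 10 and 1 shallower cells, CNX was seen in 53 of 86 cells (61.6%) and 39 of 95 cells (41.1%). At full depth, 31 cells of the pre-meiotic pool held more than 10 CNX UMIs, against 7 of the bHLH pool.

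crt2, the soluble calcium-binding chaperone, was sparser in cells of the bHLH pool than in those of the pre-meiotic pool in both level and detection. It had 204 UMIs in the pre-meiotic pool and 52 in the bHLH pool. Its level ran from 0 over a median of 25.4 to 645 TPM in the pre-meiotic pool, with a mean of 68.3 ± 107 TPM (SD over 96 cells). Over the bHLH cells it ran from 0 over a median of 0 to 196 TPM, with a mean of 15.1 ± 32.9 TPM (SD over 96 cells). Most cells of the bHLH pool thus had no UMI of crt2, and those with one overlapped the range of the pre-meiotic pool. The highest value, 645 TPM, is a single UMI in a cell of 1551 UMIs. By summed UMIs the gene was 4.24-fold higher in the pre-meiotic pool (3.11 to 5.86).

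A UMI of crt2 was found in 57 of 96 cells (59.4%, 48.9% to 69.3%) of the pre-meiotic pool and in 27 of 96 cells (28.1%, 19.4% to 38.2%) of the bHLH pool. At 5000 UMIs per cell the counts were 23 of 86 (26.7%) and 6 of 95 (6.32%). More than 10 UMIs were found in 3 cells of the pre-meiotic pool and in none of the 96 cells of the bHLH pool, where 1 cell had 6 to 10.

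**Figure D1:**
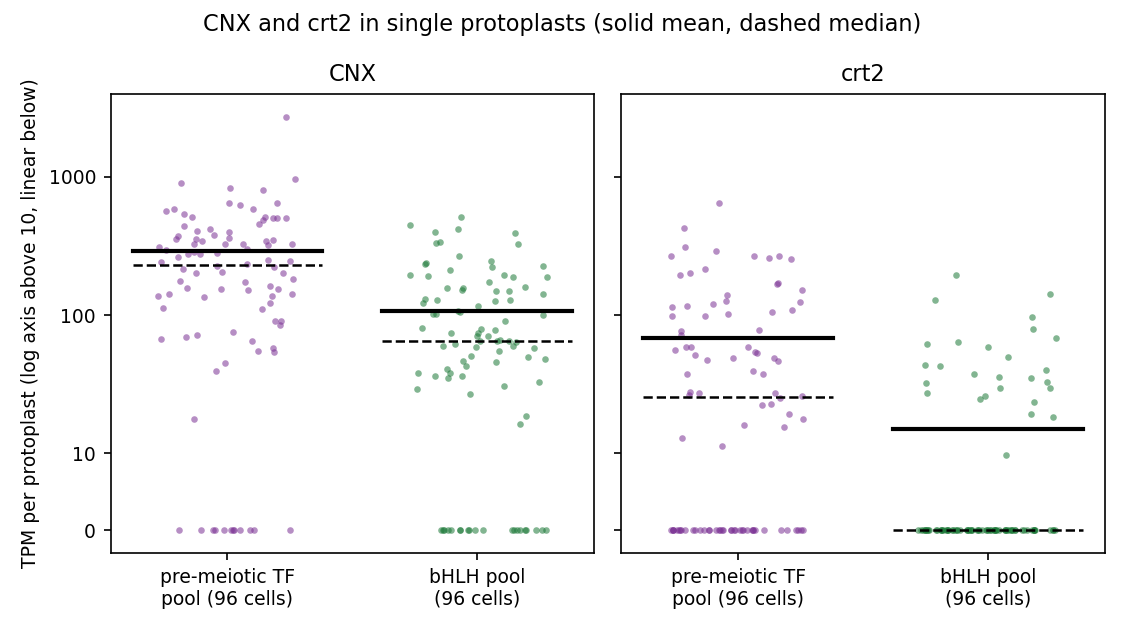
Level of CNX (left) and crt2 (right) in each of 96 protoplasts per pool, in TPM on an axis that is logarithmic above 10 and linear below. Each point is a cell, solid lines are means and dashed lines medians; the CNX means are 289.6 and 107 TPM, and the crt2 median of the bHLH pool lies at 0.

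Relative to other genes, both lay near the lower end of the range. The median gene had a log2 ratio (bHLH over pre-meiotic, each mean TPM plus 10) of 0.26 over 1775 eligible gene models, those with 50 TPM or more and a UMI in 25% or more of the cells of a pool. Ratios called centred are relative to it. Centred log2 ratios were -1.63 for CNX and -1.91 for crt2, and 6.25% and 4.34% of the eligible gene models lay at or below these values. A centred ratio of at most -1 was reached by 15.7% of all eligible gene models. CNX met the level minimum in both pools, while crt2 met it in the pre-meiotic pool alone. With a pseudocount of 100 TPM the centred ratio of crt2 was -0.67, past -1 no longer.

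The 5 eligible named genes with the closest ratio to CNX were AAE, the calmodulin gene CaM1, the disulfide isomerase gene pdi, pck2 and cc6, with centred log2 ratios from -1.58 to -1.69. Closest to crt2 were PAL1, pr5, lox4, opr3 and wip1, from -1.84 to -2.01. These are genes of phenylpropanoid synthesis (PAL1), pathogen response (pr5), jasmonate and oxylipin synthesis by name (lox4, opr3) and wound-induced protease inhibition (wip1). This likeness rests on 2 pools and is the ratio alone.

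The levels were also read within classes of complexity, which restates the choice of the members in parts of the same cells. Median depths in the pre-meiotic and bHLH pools were 42851 and 42645 UMIs per cell with at least 5000 detected genes. With at least 2000 but fewer than 5000 genes they were 18814 and 12800, so this class was not matched in depth. Among cells with at least 5000 detected genes, CNX averaged 368 TPM over 49 cells of the pre-meiotic pool and 114 TPM over 55 cells of the bHLH pool, a 3.07-fold ratio of summed UMIs (2.68 to 3.52). Without protoplast 78, the CNX mean of these cells of the pre-meiotic pool was 319 TPM. Among cells with at least 2000 but fewer than 5000 genes CNX averaged 241 TPM over 25 cells and 95.8 TPM over 39 cells. This was a 2.16-fold ratio of summed UMIs (1.55 to 3.03). For crt2 the means were 86.1 and 16.4 TPM in the more complex cells (4.54-fold, 3.24 to 6.47) and 56.4 and 14.0 TPM in the others (3.77-fold, 1.66 to 9.63). Without protoplast 43 the last mean of 14.0 TPM was 9.19 TPM. Cells under 2000 genes held 19 CNX UMIs and 4 crt2 UMIs in the pre-meiotic pool, and 1 and 0 in the 2 such cells of the bHLH pool, too few to compare.

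Within the pre-meiotic pool the mean level rose with complexity, from 171 over 241 to 368 TPM for CNX and from 42.0 over 56.4 to 86.1 TPM for crt2. The 42.0 TPM rest on protoplast 1 and its single UMI, without which the other 21 cells averaged 13.3 TPM. Without protoplast 78 the 368 TPM of CNX were 319 TPM. In the bHLH pool the CNX means lay between 95.8 and 114 TPM in all 3 classes. The thinnest class, under 2000 genes, rests on 22 and 2 cells.

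**Figure D2:**
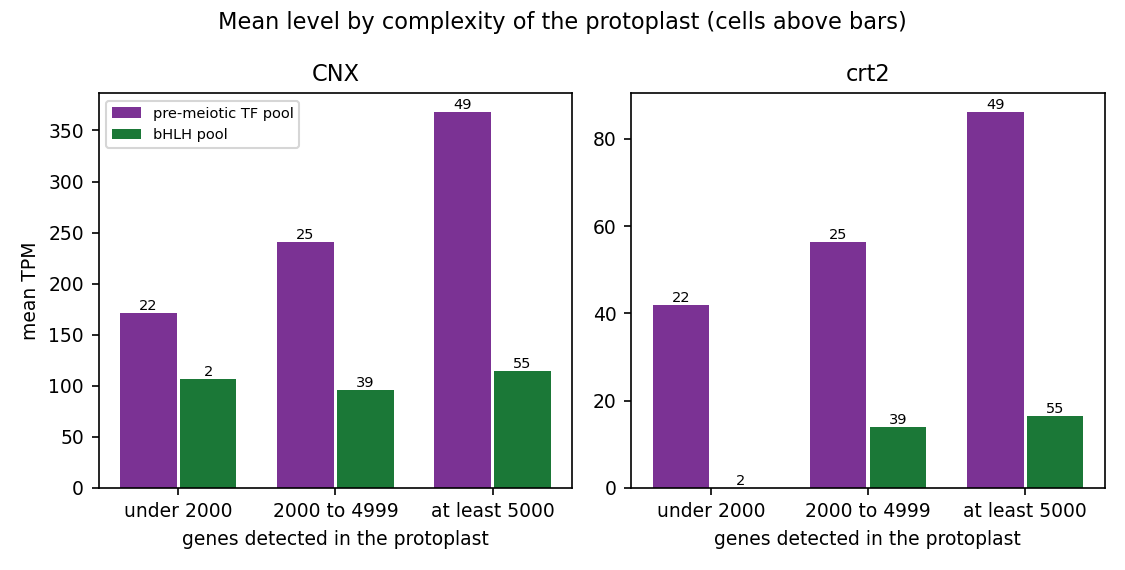
Mean level of CNX (left) and crt2 (right) in TPM by the number of genes detected in the protoplast, with the number of cells above each bar. In both classes from 2000 genes upward the bar of the pre-meiotic pool is the taller, for example 368 against 114 TPM for CNX in the most complex cells; cells within a class vary widely and no error is drawn.

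CNX varied more between cells than counting alone gives. The dispersion index, the variance of UMIs over that of Poisson counts at the same depths, was 10.3 for CNX in the pre-meiotic pool, where the median eligible gene had 2.09, and 5.07 without protoplast 78, the highest cell. For cells of the bHLH pool it was 3.60 against a median of 1.72. For crt2 it was 3.17 and 1.82. With all cells kept, 92.2% of the eligible gene models lay below CNX in the pre-meiotic pool and 80.5% in the bHLH pool. Below crt2 lay 70.5% and 54.6%. At a like relative spread the index rises with the level, and the genes and pools compared here were not matched in level. CNX was absent from 12.5% of the cells of the pre-meiotic pool, where Poisson counts at its mean level give 5.87%, and crt2 from 40.6% against 25.9%. These pairs were 20.8% against 12.7% for CNX and 71.9% against 62.2% for crt2 in the bHLH pool.

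The UMIs of both genes were spread unevenly over the cells. The 10 cells with the most UMIs held 39.1% of the CNX UMIs and 46.1% of the crt2 UMIs of the pre-meiotic pool, and 45.5% and 65.4% of those of the bHLH pool. The 10 deepest cells held 25.7% and 26.9% of all UMIs. With 52 crt2 UMIs in 27 cells, the share in the bHLH pool is bound to be high. The highest CNX level, 2722 TPM, belonged to protoplast 78 of the pre-meiotic pool, with 75 CNX UMIs among 27558. That cell also had the highest bip1 level of its pool (3846 TPM, 106 UMIs). Its levels of crt2 (290.3 TPM, 8 UMIs) and pdi8 (218 TPM, 6 UMIs) each ranked 4 of 96. Outside the ER lists, the glutathione S-transferase gene gst31 also ranked 4 of 96 (2322 TPM, 64 UMIs), and gst7 ranked 16 (3338 TPM). The cytosolic chaperone gene Hsp70 ranked 49 of 96 (1197 TPM). In the cells of the pool at places 2 to 5 in CNX, Hsp70 ranked 45, 59, 5 and 63. Without protoplast 78 the CNX mean of the pool was 264 TPM. Protoplast 24, next in CNX (961 TPM, 47 UMIs), had the second highest bip1 and bip2 levels (3474 and 1185 TPM).

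Cells of the pre-meiotic pool with crt2 mostly had CNX as well, while most cells with CNX lacked crt2 at equal depth. At 5000 UMIs per cell they occurred together in 25.6% of the cells, where the product of their shares is 16.5%: 22 of the 53 cells with CNX also had crt2 (41.5%), against 1 of the 33 cells without CNX (3.03%). In the bHLH pool the counts were 3 of 39 (7.69%) and 3 of 56 (5.36%), a level at which 6 cells carry the whole of crt2. Over cells with at least 5000 UMIs, the rank correlation of the levels, with the total UMIs of the cell as a partial term, was 0.57 in the pre-meiotic pool (86 cells) and 0.30 in the bHLH pool (95 cells). Thinned to 5000 UMIs it was 0.49 and 0.04. Cells of a pool share their library preparation, so these correlations are a description, and with crt2 in 27 cells of the bHLH pool the value there is weak.

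The share of crt2 among the UMIs of the pair does not depend on the totals of the cells. It was 204 of 1116 (18.3%, exact interval 16.1% to 20.7%) in the pre-meiotic pool and 52 of 404 (12.9%, 9.76% to 16.5%) in the bHLH pool. The intervals overlapped narrowly. Beside bip1, the share of CNX was 30.2% (28.5% to 31.9%) and 24.0% (21.8% to 26.2%), and that of crt2 was 8.82% (7.69% to 10.0%) and 4.45% (3.34% to 5.80%). As both members were chosen for a lower level in the bHLH pool, these shares restate that choice beside a gene that was also lower.

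**Figure D3:**
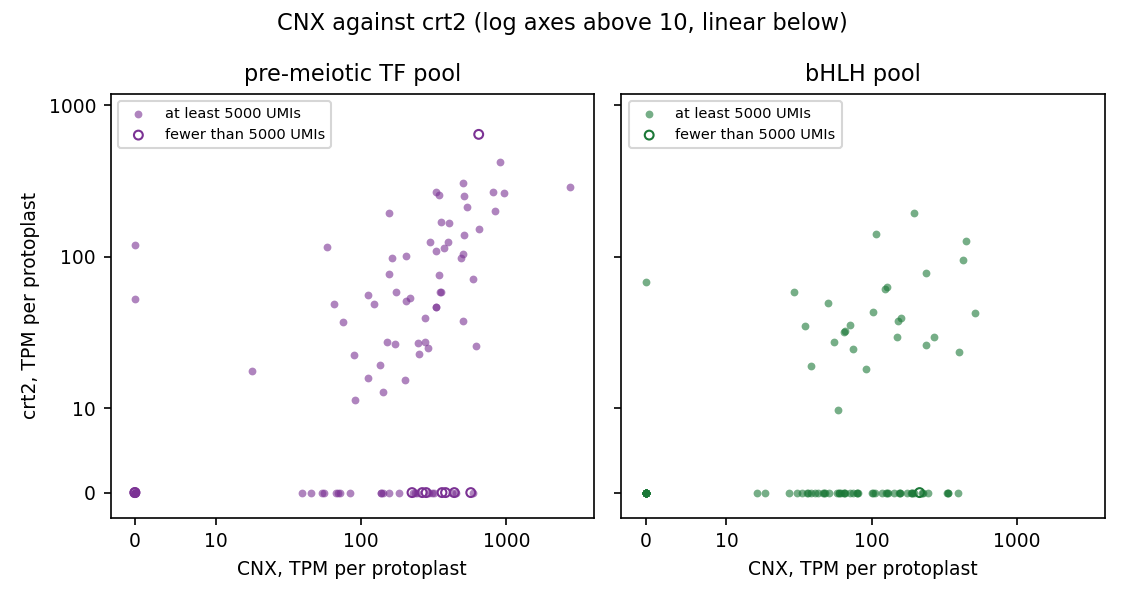
Level of crt2 against that of CNX in each protoplast of the pre-meiotic pool (left) and the bHLH pool (right), in TPM on axes that are logarithmic above 10 and linear below. Filled points are cells with at least 5000 UMIs and open points shallower cells; the partial rank correlation over the filled points is 0.57 on the left and 0.30 on the right, where 69 of the 96 cells have no crt2 UMI.

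In the pre-meiotic pool the genes of BiP followed both members most closely over cells at their full depth. Genes detected in 50% or more of a pool's cells were ranked by the smaller of their partial rank correlations with CNX and crt2. In the pre-meiotic pool, bip1 (GRMZM2G114793) stood first of 2639 genes, with 0.62 to CNX and 0.57 to crt2. Its close relative bip2 (GRMZM2G415007) stood second, with 0.61 and 0.50. Reads of such similar genes can be split between them, so the 2 rows are not independent. The median gene had 0.17 to CNX and 0.11 to crt2. In the bHLH pool, bip1 had 0.57 to CNX and 0.27 to crt2 and stood at place 13 of 3210 genes, while bip2 had 0.42 and 0.16 and stood at place 166.

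The next places in the pre-meiotic pool went to genes of other kinds. GRMZM2G074687, which the table leaves unnamed, had 0.57 and 0.50. It fell short of the detection minimum in the bHLH pool, where its correlations were 0.35 and 0.28. The aldehyde oxidase gene AO2 (0.53 and 0.49) and the unnamed GRMZM2G091119 (0.53 and 0.47) took places 4 and 5, and in the bHLH pool their smaller correlations were -0.06 and 0.01. The glutathione S-transferase genes gst31 (0.56 and 0.46) and gst7 (0.51 and 0.43), whose products conjugate toxic compounds, took places 6 and 7, and the calmodulin gene cal2 place 8 (0.44 and 0.42). The smaller correlations of gst31 and gst7 in the bHLH pool were 0.18 and 0.31, and that of cal2 was -0.02. With the values as deposited gst7 stood at place 2303 (-0.07) in the pre-meiotic pool, while bip1 stayed first. After thinning, gst31 stood first of 347 genes (0.39), with bip2 at place 4 and bip1 at place 5.

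A smaller correlation of at least 0.3 was reached by 98 genes in the pre-meiotic pool (3.71% of those ranked) and by 8 in the bHLH pool (0.249%). They shared 3 genes, which is 3.06% of the first list and 37.5% of the second: gst7, the unnamed GRMZM2G162688 and GRMZM2G479423 (AR1). GRMZM2G162688 led the bHLH pool, with 0.38 to CNX and 0.40 to crt2, and had 0.41 and 0.39 in the pre-meiotic pool. The others of the 8 were GRMZM5G841619 (TSA) and the unnamed GRMZM2G130987, GRMZM2G307368, GRMZM2G148387 and GRMZM2G107896, with smaller correlations from 0.31 to 0.33. The count in the pre-meiotic pool depended on the terms: with the number of detected genes as a second partial term it was 20 (0.758%), with bip1 and bip2 again first and second.

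**Figure D4:**
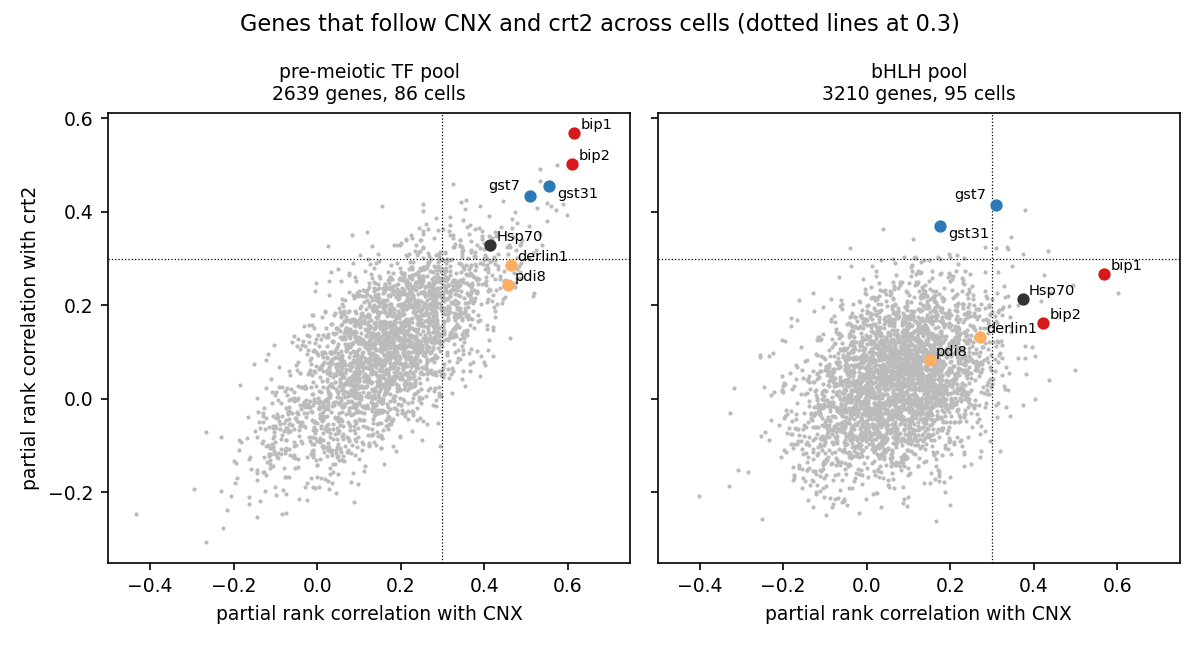
Partial rank correlation of each gene with CNX (horizontal) and with crt2 (vertical) over cells of at least 5000 UMIs, in the pre-meiotic pool (left, 2639 genes) and the bHLH pool (right, 3210 genes). Grey points are all ranked genes and dotted lines mark 0.3; bip1 and bip2 lie at the upper right end on the left and stay to the right of the CNX line, at 0.57 and 0.42, on the right.

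Groups of genes were also summed per cell, without the 2 members. In the pre-meiotic pool the sum of the other 25 ER genes matched by name had a correlation of 0.70 with CNX and 0.55 with crt2, and in the bHLH pool of 0.55 and 0.30. Most of that sum was BiP RNA (944 of 1442 TPM in the pre-meiotic pool), and the BiP genes alone gave 0.67 and 0.58, then 0.57 and 0.25. The other ER lists were lower in the pre-meiotic pool. Disulfide isomerase genes gave 0.47 and 0.15, degradation genes 0.41 and 0.37, bZIP17 0.34 and 0.22, dad1 0.12 and 0.10, and SRP9 0.06 and 0.19. Glutathione S-transferase genes gave 0.57 and 0.42 in the pre-meiotic pool and 0.24 and 0.29 in the bHLH pool. Heat shock genes gave 0.45 and 0.30, then 0.24 and 0.07. Wound and defence genes gave 0.42 and 0.34, then 0.16 and 0.30. In the bHLH pool ER, wound and glutathione S-transferase genes were thus alike in their correlation with crt2. The summed rows of 24-nucleotide PHAS loci gave 0.44 and 0.30 in the pre-meiotic pool and 0.12 and 0.23 in the bHLH pool.

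The summed level of the 32 construct rows gave low values. Its correlation was 0.15 with CNX and 0.09 with crt2 in the pre-meiotic pool, and 0.06 and -0.11 in the bHLH pool. The gene models ms23 and ms32 are not in this sum. They had 836 and 1581 TPM in the bHLH pool, in all 96 cells each. Whether they hold construct RNA was not tested, so the sum may leave out part of the dose. Other features of the cells moved with the members. In the pre-meiotic pool CNX had 0.40 with the number of genes detected, -0.43 with the level of the most abundant gene model, GRMZM2G028910, and 0.42 with the summed mesophyll markers. The bHLH pool gave 0.28, -0.15 and 0.03. With the number of genes and with GRMZM2G028910, crt2 had 0.25 and -0.25 in the pre-meiotic pool. Its values in the bHLH pool were 0.17 and -0.11. GRMZM2G028910 held a median of 30.8% and 21.7% of the UMIs of a cell, and so is a large part of the total that TPM divides by. The part of these features in the correlations between genes was tested only for the number of genes and for GRMZM2G028910. The former was added as a partial term and the latter removed from the totals. The rank correlation of CNX with crt2 was 0.53 in the pre-meiotic pool each way.

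The other ER genes were read by role. Of 27 genes in 7 lists, 8 were eligible, CNX and crt2 included, and 6 of the 8 had a centred log2 ratio of at most -1, where 15.7% of all eligible gene models had one. The choice of CNX and crt2 fixed their place. Of the other 6 genes, 4 were at or below -1, with a median of -1.22. The lists were chosen with earlier results of these data known, so this count is a description too. Among the 4 are bip1 and bip2, whose rows are not independent. Over all 27 genes with no filter on low values the median was -0.02, and 5 were at or below -1, where 1.55% of all detected gene models were. With the values as deposited the median was -0.40 over 15 genes. Of the eligible genes, crt2, pdi and bZIP17 met the level minimum in the pre-meiotic pool alone, which by itself favours a low ratio. Of the 5 that met it in both pools, CNX, bip1 and bip2 were at or below -1 (2 of 4 without CNX), and 8.52% of the 962 gene models that did so reached it.

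Among chaperones of the lumen, bip1 had 675 TPM in the pre-meiotic pool and 321 TPM in the bHLH pool, a 2.04-fold ratio of summed UMIs (1.90 to 2.20). bip2 had 269 and 131 TPM (2.22-fold, 1.96 to 2.53). Both were called by the fold used here, at centred log2 ratios of -1.31 and -1.25. They were seen in 90 and 87 cells of the pre-meiotic pool and in 85 and 79 of the bHLH pool.

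Protein disulfide isomerases, which form and shuffle disulfide bonds in the ER, did not go one way. The gene pdi (GRMZM2G091481) had 64.8 and 20.0 TPM (4.12-fold, 2.93 to 5.91). The other eligible member, pdi8 (GRMZM2G389173), had 63.1 and 57.2 TPM, a centred log2 ratio of -0.39. Below the minimum, pdi7 (GRMZM2G159369) had 26.8 and 26.9 TPM, and PDIL5-1 (GRMZM2G443655) had 25.4 and 22.3 TPM. Levels of pdi12 (8.53 and 19.9 TPM) and pdi6 (10.4 and 18.3 TPM) were the higher ones in the bHLH pool, and both were chosen for mention after their values were seen. The correlation of pdi with CNX was 0.39 and with crt2 0.05 in the pre-meiotic pool, while pdi8 had 0.46 and 0.24.

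bZIP17 (GRMZM2G103647), which by its name encodes a membrane-anchored factor of the ER stress response as known from Arabidopsis, had 62.7 TPM in the pre-meiotic pool and 28.3 TPM in the bHLH pool, a centred log2 ratio of -1.19. It was seen in 59 and 33 cells. Of 5 derlin genes, whose products act in the removal of misfolded ER protein, derlin1 (GRMZM2G117388) was the eligible one, at 89.3 and 99.6 TPM. Its centred log2 ratio of -0.12 changes sign before centring, since its summed UMIs gave a bHLH over pre-meiotic ratio of 1.09 (0.917 to 1.30). derlin2 had 48.2 and 45.5 TPM, derlin4 40.6 and 24.7 TPM, and DER1.2 15.2 and 28.2 TPM, and der2 was seen in 1 and 2 cells. The glycosylation gene dad1 (7.71 and 13.4 TPM) and SRP9 (5.92 and 19.1 TPM), named for the signal recognition particle that brings nascent chains to the ER, were too low to be eligible.

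**Figure D5:**
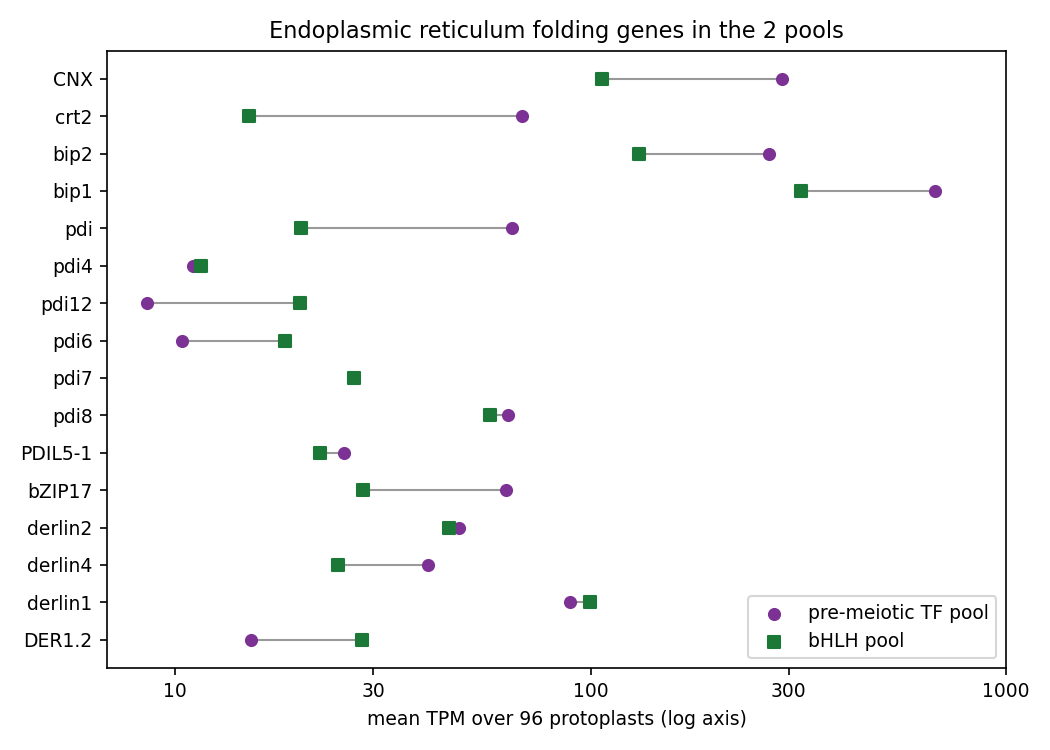
Mean level in TPM (log axis) of ER folding and degradation genes with at least 10 TPM in a pool, circles for the pre-meiotic pool and squares for the bHLH pool, each over 96 protoplasts. CNX, crt2, bip1, bip2, pdi and bZIP17 have the square well to the left, for example 15.1 against 68.3 TPM for crt2, while derlin1, pdi7 and pdi8 have both marks close together.

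Genes of calcium signalling and transport were measured because both members bind calcium. Of 26 matched genes 4 were eligible, and 2 of these had a centred log2 ratio of at most -1 (15.7% of all eligible gene models), both through a mean of at least 50 TPM in the pre-meiotic pool alone. The calmodulin gene CaM1 (GRMZM2G152891) had 99.8 and 31.6 TPM (-1.66), and the calcium-dependent kinase gene MCK2 (GRMZM2G173928) had 52.5 and 25.2 TPM (-1.09). The kinase gene cdpk1 had 75.5 and 61.4 TPM (-0.53), and cal2 had 34.0 and 52.1 TPM (0.23). The correlations of CaM1 with CNX were 0.13 and 0.08, against 0.44 and 0.10 for cal2, so the closeness of CaM1 to CNX in the ratio of the pools went with no high correlation across cells.

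In the ratio between the pools, genes of heat shock proteins, matched by name, mostly stood apart from the eligible ER genes. None of the 12 eligible genes had a centred ratio of at most -1, which 15.7% of all eligible gene models had, but hsp1 (126 and 71.8 TPM) was at -0.995. A ratio of at least 1 was found for 5 of the 12, beside 6.76% of all eligible gene models, and the median was 0.71. Hsp70 (GRMZM2G310431) had 1643 TPM in the pre-meiotic pool and 2768 TPM in the bHLH pool, and hsp22, hsp101 and hsp18f had centred log2 ratios of -0.15, 0.60 and 1.19. Hsp70 had a correlation of 0.41 with CNX in the pre-meiotic pool and of 0.37 in the bHLH pool. Hsp70 thus had a positive correlation with CNX within both pools, and the opposite direction between them. Across cells of the pre-meiotic pool hsp22 had 0.49 with CNX and 0.33 with crt2, above the call of 0.3 for both. In the bHLH pool hsp22 had 0.20 and 0.03. For hsp18f and hsp101 the correlations with CNX in the pre-meiotic pool were 0.24 and 0.22.

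Among glutathione S-transferase genes 6 of 10 eligible members were at or below -1, with a median of -1.26, beside 15.7% of all eligible gene models. Among those eligible in both pools it was 3 of 7, beside 8.52%. Among wound and defence genes 10 of 16 were at or below -1 and 1 at or above 1, with a median of -1.36, beside 15.7% and 6.76% of all eligible gene models. Among those eligible in both pools 2 of 7 were at or below -1, beside 8.52%. The most abundant wound and defence gene, opr2, was the 1 above 1, with 2289 and 5899 TPM. The followers gst7 and gst31 had 2024 and 865 TPM (-1.48) and 850.0 and 219 TPM (-2.17). gst5 and gst2 lay at -0.81 and -0.98, with correlations to CNX of 0.55 and 0.56 in the pre-meiotic pool and of 0.15 and 0.24 in the bHLH pool. The jasmonate-pathway gene opr1 had 0.47 and 0.14, opr2 0.26 and 0.11, and the protease inhibitor genes wip1 and MPI had 0.20 and -0.08 and 0.16 and 0.05.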

How the data were processed

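Per the submitters' processing notes, the authors used HISAT2, SAMtools and UMI-tools with the build B73 RefGen v3, while tool versions, the annotation and any cell filter were not given in the sources used here. Although deposited as TPM, the values have the unit of a signal: per cell they add up to between 65502 and 10967874. They are UMI counts divided by cell totals that were recycled down the rows. Undoing this gave whole numbers for 1001042 of 1001042 nonzero values (tolerance 0.001 UMI), and TPM was recomputed within cells, where the design had assumed TPM as deposited. All 192 cells had at least 500 genes. The titles gave each cell its pool and a protoplast number that merely counts. Doublets were not searched for, because each sample is described as 1 protoplast. The highest correlation of log counts between 2 cells was 0.78.

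Names came from the RefSeq table of Zm-B73-REFERENCE-NAM-5.0, which matched 16091 IDs; it is another build, so no coordinates are given. The members and lists were chosen with earlier results of these data known, and pools were compared without tests. The text names the members, the up to 4 most abundant genes of each list, the 8 closest followers in each pool and the 5 named genes closest in ratio to each member; other names were added after values were seen. From the lists, 28 matched rows of other gene families were dropped once their names were seen, such as CNX5, a molybdenum cofactor gene. Scripts were tested on simulated data and used Python 3.11.15, NumPy 2.4.6, pandas 2.3.3, SciPy 1.17.1 and matplotlib 3.10.9.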

Additional observations from a re-analysis of the deposited data

How the results depend on the processing

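No paired analysis was possible because protoplast numbers only count cells within a pool. CNX and crt2 were lower in the bHLH pool under all 11 alternatives run for each. The centred log2 ratio of CNX moved to -1.04 with a pseudocount of 100 TPM, to -1.20 with the values as deposited and to -2.27 with medians over cells, and stayed between -1.73 and -1.56 under the other 8. That of crt2 moved to -2.40 and -0.67 with pseudocounts of 1 and 100 TPM and to -2.41 with medians, and stayed between -2.03 and -1.84 under the other 8. The count of ER genes at or below -1 was 2 of 8 eligible with a pseudocount of 100 TPM (3.27% of all eligible gene models). With medians over cells it was 3 of 4 (16.3%), and with the minimum set on the mean over both pools 3 of 5 (12.9%). The last alternative was chosen after seeing the data, as were those without the highest cells and without the cells that had no construct UMI. The correlation of CNX with crt2 was 0.36 in the pre-meiotic pool with the values as deposited and 0.037 in the bHLH pool after thinning. The count of genes following both in the pre-meiotic pool was 160 with no partial term (6.06% of those ranked) and 6 after thinning (1.73% of 347). It was 20 with detected genes as a second partial term (0.758%) and 29 without the most abundant gene in the totals (1.10%). Over all cells it was 30 (1.45%), in cells with at least 2000 genes 59 (1.71%), and with the values as deposited 37 (1.40%). In the bHLH pool the count was 0 of 398 after thinning and 2 with the second term (0.0623%). With the values as deposited it was 4 (0.125%), and without the cell highest in crt2, protoplast 43, it was 5 (0.152%). In the pre-meiotic pool bip1 stayed within the first 5 places and bip2 within the first 23 under the 11 alternatives. In the bHLH pool bip1 ran from place 10 to 101 and bip2, where ranked, from 54 to 747, in rankings of unlike size. After thinning bip1 stood there at place 99 of 398 genes, with a smaller correlation of 0.03. Thinning left fewer UMIs and fewer ranked genes, and was run with no partial term. The causes of these changes were not tested.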
